A study of Homo sapiens with 12 samples.

Results

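The data described here are the FPKM values of 37 genes of the autophagy machinery in 2 pancreatic cancer cell lines and in the gemcitabine (GEM)-resistant lines raised from them. The genes were listed by name for their role in the pathway, and each of the 37 had 1 row among the 58302 genes of the deposited table. BxPC-3 and CFPAC-1 are the parental lines, labelled as epithelial in morphology and sensitive to the drug. The BxPC-3-GR line is labelled as resistant and mesenchymal in morphology, CFPAC-1-GR as resistant and epithelial, and each came from 1 parental line by long exposure to rising concentrations of GEM, a nucleoside analog. The methods give a higher final concentration for BxPC-3-GR than for CFPAC-1-GR. Each of the 4 lines has 3 replicate libraries, and the labels do not say whether these came from separate cultures, so p-values measure the spread between libraries only.

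Autophagy encloses cytoplasm in a double membrane, the autophagosome, which then fuses with the lysosome. The ULK kinase complex starts the process, a phosphatidylinositol 3-kinase (PI3K) complex marks the membrane, and lipid transfer and vesicle proteins enlarge it. A pair of ubiquitin-like conjugation systems then attaches the ATG8 proteins (LC3 and GABARAP) to the membrane, where cargo receptors bind them. The pathway is known in pancreatic cancer for its high basal activity. RNA levels do not measure its flux. They also do not give the protein levels of receptors such as SQSTM1 and of the ATG8 proteins, which are themselves degraded by it.

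The steps between the lowest FPKM values gave an implied depth of 12500000 to 31050000 fragments per library, with 99.9% to 100% of low values within 0.05 of a whole multiple. Between 10565 and 12598 genes reached 1 FPKM in a library. Within lines the Spearman correlation of log2(FPKM + 1) lay between 0.917 and 0.925. Of 7 epithelial markers, 6 had line means of 21.6 FPKM (CDH1 in CFPAC-1) to 1573 FPKM (KRT19 in CFPAC-1), and MUC1 was lower, at 0.353 FPKM in BxPC-3 and 4.01 to 7.47 FPKM in the other lines. Of 8 markers of blood, vessel, stromal, acinar and islet cells, PTPRC, INS and GCG were listed at 0 in all 12 libraries, and PECAM1, PRSS1, COL1A2 and CPA1 had line means of 0 to 0.655 FPKM. COL1A1 was at line means of 0.727 to 3.02 FPKM and rose in CFPAC-1-GR (log2FC 0.69, adjusted p = 0.000422; 1.23 after the correction described below). There were 4 mesenchymal markers. In BxPC-3-GR, labelled mesenchymal, VIM was 0.813 FPKM against 6.59 in BxPC-3, and CDH2 was 5.40 against 1.99. FN1 was 9.09 against 5.30 FPKM, and ZEB1 0.00333 against 0.0329 FPKM. In CFPAC-1-GR, labelled epithelial, the log2FC was -1.11 for VIM, 1.19 for CDH2 and 1.08 for FN1 (-1.51, 0.59 and -0.15 after the correction). ZEB1 there was 0.182 against 0.0762 FPKM. The part of all these markers in the results was not tested. These are bulk libraries, so fewer cells with a transcript and less transcript per cell cannot be told apart.

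ATG4A, ATG4B, ATG4C and ATG4D are the 4 forms of a cysteine protease that trims ATG8 proteins before they are conjugated and later frees them from the membrane. They are shown here because they carry out the same chemistry from genes of very different base composition, and their RNA moved in opposite directions in CFPAC-1-GR. The 63 coding bases around the catalytic cysteine (capitals mark its codon) come from GENCODE release 29, and each window lies within 1 coding exon of the plus strand:
ATG4A: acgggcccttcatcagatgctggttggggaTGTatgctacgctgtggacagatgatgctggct
ATG4B: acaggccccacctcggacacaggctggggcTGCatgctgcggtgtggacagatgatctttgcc
ATG4C: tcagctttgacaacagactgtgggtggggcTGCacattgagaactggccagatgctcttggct
ATG4D: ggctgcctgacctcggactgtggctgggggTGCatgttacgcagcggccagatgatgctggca
On GRCh38 they are at chrX:108131265-108131327, chr2:241653517-241653579, chr1:62816715-62816777 and chr19:10545037-10545099, in that order. ATG4A and ATG4B share 46 of the 63 bases, and ATG4A and ATG4C share 36. Over the whole coding sequence, GC at the last codon position was 41.9% in ATG4A, 69.0% in ATG4B, 29.4% in ATG4C and 78.7% in ATG4D. In the longest GENCODE transcript of each gene, the GC content used below was 42.5%, 60.9%, 34.8% and 64.8% in the same order.

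In BxPC-3-GR, 2 members rose past a log2FC of 1, ULK1 and RB1CC1, both of the initiation complex, and none fell past -1. Genes were tested with limma on log2(FPKM + 1) where their mean over the 6 libraries reached 1 FPKM, and are called SDE below at a Benjamini-Hochberg adjusted p under 0.05 with an absolute log2FC above 1. "Rose" and "fell" mean an adjusted p under 0.05 at any size of change. Of the 32 members tested, 2 were SDE and higher, where 4.14% of all 11710 genes tested were, and 0 were SDE and lower, where 3.62% of all genes were. At an adjusted p under 0.05 alone, 10 members rose and 8 fell, against 26.2% and 31.5% of all genes, and 10 were lower at an unadjusted p under 0.05. The median log2FC was 0.08 over the members and -0.05 over all genes tested. Only ULK1 and RB1CC1 of the tested members thus moved by more than the threshold in BxPC-3-GR, and the shares in either direction were near the background.

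In CFPAC-1-GR, 10 of 32 tested members were SDE and higher and 5 were SDE and lower. This stands against 20.5% and 11.7% of all 12051 genes tested, and at an adjusted p under 0.05 alone 17 members rose and 10 fell, against 44.6% and 34.9% of all genes. The median log2FC was 0.51 over the members and 0.13 over all genes tested. Change in this line ran with base composition, taken as the GC content of the longest transcript. The rank correlation (Spearman's rho) between log2FC and GC content was -0.777 across the 12030 genes with a GC value and -0.789 across the 32 members. The same values in BxPC-3-GR were 0.0388 across 11685 genes and 0.0422 across 32 members. These correlations are across genes of the same libraries and are given as a description. The 10 SDE members that were higher in CFPAC-1-GR had a GC content of 34.8% to 48.0%, and the 5 that were lower had 59.8% to 64.8%, so the groups did not overlap.

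**Figure D1:**
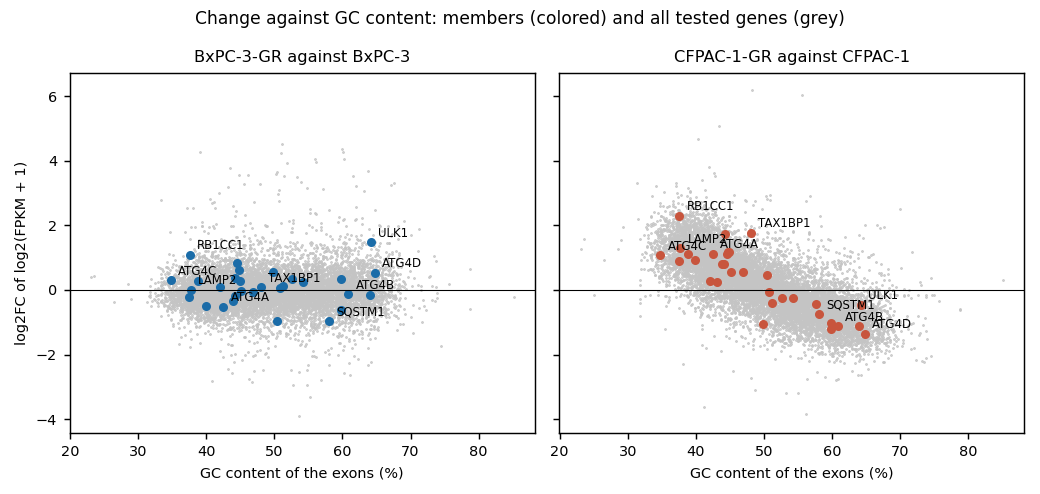
The log2FC of log2(FPKM + 1) of each tested gene is plotted for BxPC-3-GR (left) and CFPAC-1-GR (right). The horizontal axis is the GC content, in percent, of the exons of its longest transcript. Grey points are all tested genes and colored points are the members; rho over the 32 members was 0.0422 on the left and -0.789 on the right.

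For this reason the log2FC of each tested member in CFPAC-1-GR, with all libraries, is also given below after a smooth function of GC content and exonic length, fitted across genes, was taken out of every library. This is called the corrected log2FC. With the correction, 1 member (TAX1BP1) was SDE and higher in CFPAC-1-GR, where 4.69% of genes were, and 0 were SDE and lower, where 3.97% were. At an adjusted p under 0.05 alone, 8 members were then higher and 12 lower, with the same counts at an unadjusted p under 0.05. These are 25.0% and 37.5% of the tested members, against 29.6% and 30.6% of all 12030 genes. The median log2FC was then -0.10 over the members and -0.02 over all genes. In BxPC-3-GR the correction left 2 members SDE and higher and 0 SDE and lower, against 4.23% and 3.45% of genes. A correction of this kind also takes out any true change that runs with GC content, and the 2 sources cannot be told apart within the CFPAC-1 lines.

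**Figure D2:**
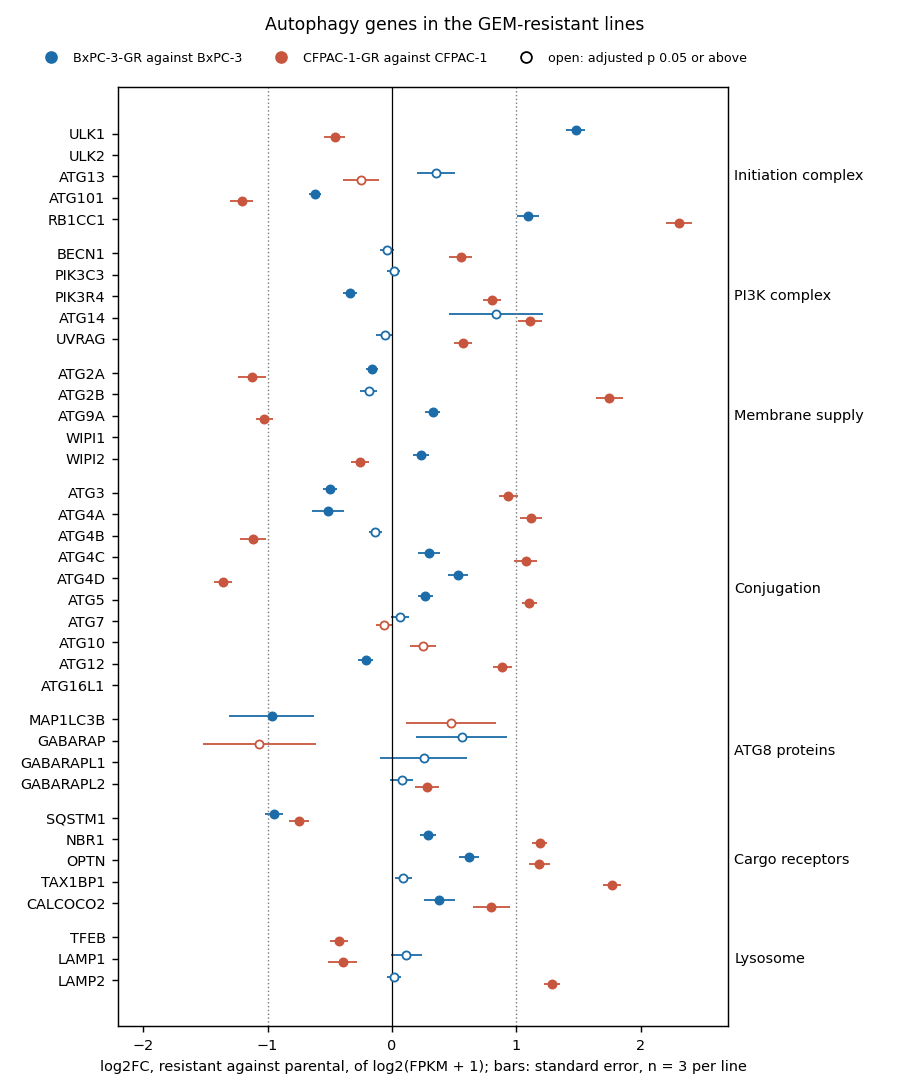
Points are the log2FC of log2(FPKM + 1) of each member, resistant against parental, with the standard error as a bar (3 libraries per line), in BxPC-3-GR (blue) and CFPAC-1-GR (red); filled points have an adjusted p under 0.05, dotted lines mark a log2FC of -1 and 1, and members without a point did not reach a mean of 1 FPKM. ULK1 lies at 1.47 in BxPC-3-GR but at -0.46 in CFPAC-1-GR, and SQSTM1 lies below 0 in both.

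With the deposited values the largest log2FC of the tested members lay in the initiation complex in each line, ULK1 in BxPC-3-GR and RB1CC1 in CFPAC-1-GR. In the CFPAC-1 pair RB1CC1 reached the minimum for the test through the resistant line alone. With the correction TAX1BP1, a cargo receptor, was the largest in CFPAC-1-GR (1.33), and WIPI1, too low to be tested in BxPC-3-GR, had a ratio of means of 4.70 there. ULK1 (chromosome 12, 131894651 to 131923167, GRCh38), the kinase that starts autophagy, was measured at 1.52, 1.79 and 1.66 FPKM in BxPC-3 and at 6.18, 5.99 and 7.0 FPKM in BxPC-3-GR. All 3 resistant libraries were above all 3 parental ones, at 3.86 times the mean, with a log2FC of 1.47 (SE 0.0728, adjusted p = 2.62e-05). In CFPAC-1 ULK1 was at 4.25, 4.40 and 4.58 FPKM and in CFPAC-1-GR at 2.86, 2.63 and 3.32 FPKM. Here the resistant libraries were all lower, with a log2FC of -0.46 (adjusted p = 0.00174), but the corrected log2FC was 0.24 (adjusted p = 0.0229), so the direction turned with the correction.

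RB1CC1 encodes FIP200, the scaffold that holds the ULK complex together. Its FPKM values were 4.83, 5.38 and 6.04 in BxPC-3 against 11.7, 13 and 13.2 in BxPC-3-GR, a log2FC of 1.09 (SE 0.0867, adjusted p = 0.00014). In CFPAC-1 they were 0.515, 0.447 and 0.321, and in CFPAC-1-GR 7.03, 5.56 and 5.63, a ratio of means of 14.2. No library of a resistant line overlapped its parental line. The log2FC in CFPAC-1-GR was 2.30 (SE 0.103, adjusted p = 6.28e-06), the largest of any tested member in either line, and the corrected log2FC was 0.97 (adjusted p = 0.000137), just under the SDE threshold. Both rest on a gene that passed the minimum of this pair through CFPAC-1-GR alone.

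ATG101 (chromosome 12, 52069246 to 52077494), which stabilizes ATG13 in the same complex, fell in both lines. BxPC-3 libraries were at 8.47, 8.42 and 7.98 FPKM and BxPC-3-GR libraries at 4.91, 5.02 and 5.23 FPKM (log2FC -0.62, adjusted p = 0.000156). The CFPAC-1 libraries were at 23.9, 19.8 and 19.8 FPKM and those of CFPAC-1-GR at 8.39, 9.02 and 8.28 FPKM (log2FC -1.21, adjusted p = 2.45e-05, corrected -0.42 with adjusted p = 0.00494). Thus 2 partners of 1 complex, RB1CC1 and ATG101, changed in opposite directions in both lines, also after the correction. An antisense gene shares 19.2% of the exonic bases of ATG101, and whether counting used the strand is not given in the sources used here. ATG13, the complex's regulatory subunit, did not pass in either line (log2FC 0.35 in BxPC-3-GR, -0.25 and corrected -0.20 in CFPAC-1-GR). ULK2, the second ULK kinase, had line means of 0.159 to 1.13 FPKM and was under the minimum for the test in both lines, with all resistant libraries above all parental ones in each.

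**Figure D3:**
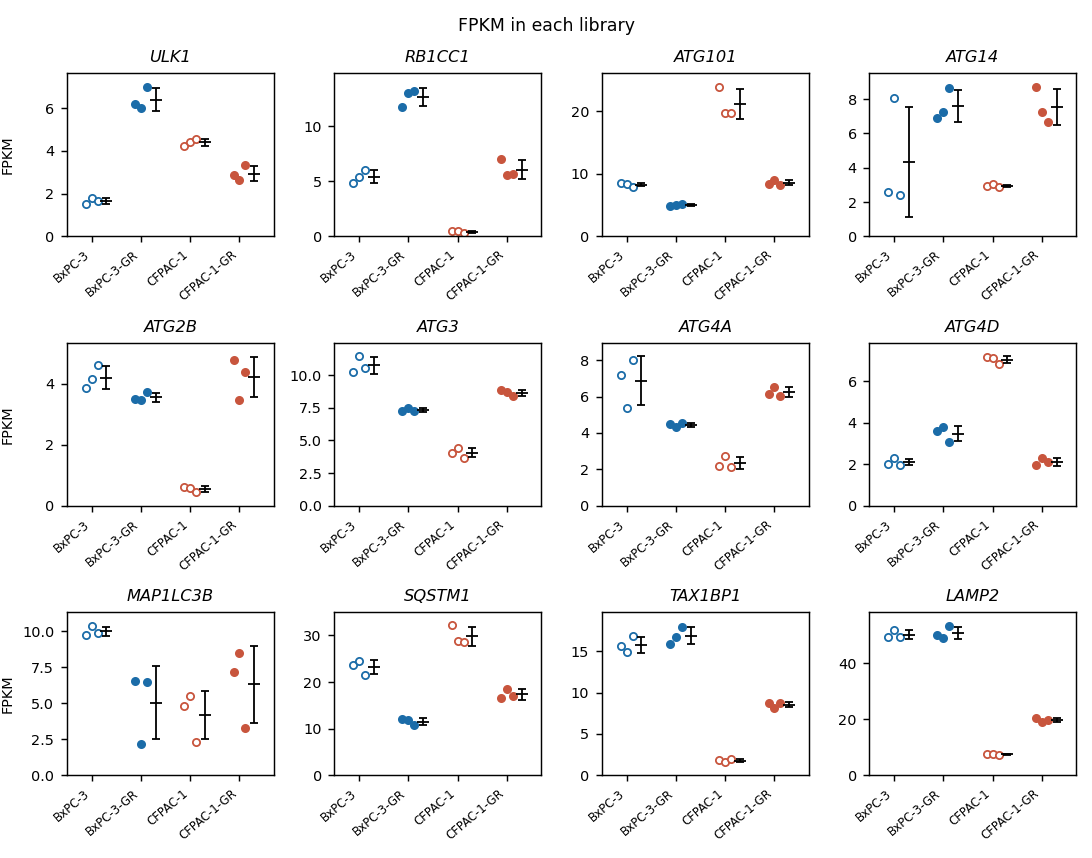
FPKM (vertical axis, from 0) of 12 members in each of the 12 libraries, with 1 point per library (open parental, filled resistant; blue BxPC-3 lines, red CFPAC-1 lines) and the mean with SD of 3 libraries beside them. RB1CC1 lies between 0.321 and 0.515 FPKM in CFPAC-1 and between 5.56 and 7.03 FPKM in CFPAC-1-GR, while LAMP2 differs between the parental lines and rises in CFPAC-1-GR.

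Of 5 tested members of the PI3K complex, 1 fell and none rose in BxPC-3-GR, at an adjusted or an unadjusted p under 0.05 in limma. PIK3R4, the regulatory kinase-like subunit VPS15, fell from 9.23, 9.21 and 9.69 FPKM in BxPC-3 to 7.66, 6.99 and 7.03 FPKM in BxPC-3-GR (log2FC -0.34, adjusted p = 0.00268). In the CFPAC-1 lines PIK3R4 rose from 3.74, 3.61 and 3.37 FPKM to 7.20, 6.52 and 7.20 FPKM (log2FC 0.80, adjusted p = 4.71e-05). Its corrected log2FC there was 0.05 (adjusted p = 0.546). The direction in CFPAC-1-GR was therefore not seen beyond the error once GC content and exonic length were taken out together.

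ATG14 (chromosome 14, 55366392 to 55411858), the subunit that brings the PI3K complex to the forming autophagosome, was SDE in CFPAC-1-GR. The values were 2.91, 3.03 and 2.87 FPKM in CFPAC-1 and 8.68, 7.23 and 6.64 FPKM in CFPAC-1-GR, with no overlap. The log2FC was 1.11 (SE 0.0977, adjusted p = 4.63e-05) and the corrected log2FC 0.45 (adjusted p = 0.00573). In BxPC-3 one library stood apart, with ATG14 at 2.58, 8.05 and 2.42 FPKM, against 6.87, 7.23 and 8.65 FPKM in BxPC-3-GR. With all libraries the log2FC was 0.83 (adjusted p = 0.105), and without BxPC-3 replicate 2 it was 1.29 (adjusted p = 0.000708), which would be SDE.

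The other tested members of this complex rose in CFPAC-1-GR and did not pass in BxPC-3-GR. BECN1, the scaffold Beclin 1, had a log2FC of 0.55 in CFPAC-1-GR (corrected -0.10) and -0.04 in BxPC-3-GR. UVRAG, which replaces ATG14 in the form of the complex that acts at endosomes, had 0.57 (corrected 0.11) and -0.06. PIK3C3, the lipid kinase VPS34 itself, was at line means of 1.43 FPKM in BxPC-3 and 1.45 FPKM in BxPC-3-GR. In CFPAC-1 it was listed at 0.205, 0.175 and 0.0940 FPKM and in CFPAC-1-GR at 0.867, 0.640 and 0.792 FPKM, which is under the minimum for the test.

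Among the membrane proteins, the 2 ATG2 paralogs, which move lipids into the growing membrane, went opposite ways in CFPAC-1-GR. ATG2B (chromosome 14, 96279202 to 96363870, 44.2% GC) was at 0.613, 0.585 and 0.442 FPKM in CFPAC-1 and at 4.78, 3.49 and 4.38 FPKM in CFPAC-1-GR. Its mean was 7.71 times higher, with a log2FC of 1.75 (SE 0.109, adjusted p = 1.13e-05) and a corrected log2FC of 0.77 (adjusted p = 0.000537). ATG2B reached the minimum for the test in this pair through CFPAC-1-GR alone. ATG2A (chromosome 11, 64894546 to 64917248, 64.0% GC) fell from 12.7, 16.9 and 16.0 FPKM to 6.48, 6.13 and 6.52 FPKM (log2FC -1.13, adjusted p = 7.3e-05, corrected -0.43 with adjusted p = 0.00727). The opposite directions of the pair held after the correction, with neither SDE.

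In the BxPC-3 lines the resistant libraries were below all parental ones for both ATG2 paralogs. ATG2A was at 5.48, 5.25 and 5.35 FPKM in BxPC-3 and 4.83, 4.64 and 4.63 FPKM in BxPC-3-GR (log2FC -0.16, adjusted p = 0.0263, corrected -0.27 with adjusted p = 0.00385). ATG2B was at 3.86, 4.15 and 4.62 FPKM and 3.50, 3.47 and 3.73 FPKM (log2FC -0.19, adjusted p = 0.056), and it passed with the correction (-0.30, adjusted p = 0.00304). ATG2B in CFPAC-1 was thus the low value among the 4 lines, and its level in CFPAC-1-GR (mean 4.22 FPKM) was near that of BxPC-3 (mean 4.21 FPKM).

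ATG9A, the scramblase of the vesicles that seed the membrane, rose in the BxPC-3 pair but fell in the CFPAC-1 pair. It was at 4.83, 5.16 and 4.66 FPKM in BxPC-3 and 6.51, 6.07 and 6.52 FPKM in BxPC-3-GR (log2FC 0.33, adjusted p = 0.00344). The CFPAC-1 libraries were at 11.7, 12.3 and 11.6 FPKM and the CFPAC-1-GR libraries at 5.11, 5.17 and 5.65 FPKM (log2FC -1.03, adjusted p = 1.37e-05, corrected -0.34 with adjusted p = 0.00283). The table places ATG9A at chromosome 2, 219209772 to 219229717, which takes in ABCB6 (1.78 to 3.09 FPKM over the libraries). In GENCODE another gene, AC068946.2, shares 1833 of the 4724 exonic bases of ATG9A (38.8%) on the same strand. The values of ATG9A are therefore uncertain. WIPI2, which reads the PI3K mark, had a log2FC of 0.24 in BxPC-3-GR (adjusted p = 0.0204) and -0.26 in CFPAC-1-GR (adjusted p = 0.0128, corrected -0.14 with adjusted p = 0.122). WIPI1 was under the minimum in both lines, at 0.150, 0.178 and 0.247 FPKM in BxPC-3 and 0.836, 0.874 and 0.988 FPKM in BxPC-3-GR. ARSG, on the other strand, shares 24.3% of the exonic bases of WIPI1.

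The ATG4 proteases, whose sequences are printed above, divided by base composition in CFPAC-1-GR. ATG4A was at 2.18, 2.72 and 2.11 FPKM in CFPAC-1 and 6.13, 6.53 and 6.05 FPKM in CFPAC-1-GR (log2FC 1.12, adjusted p = 2.8e-05). ATG4C was at 2.28, 1.83 and 1.89 FPKM and 5.61, 4.72 and 5.60 FPKM (log2FC 1.07, adjusted p = 4.36e-05). These are the 2 forms with the lower GC content.

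The forms richer in GC fell in the same libraries. ATG4B was at 8.36, 8.24 and 7.70 FPKM in CFPAC-1 and 2.7, 3.81 and 3.13 FPKM in CFPAC-1-GR (log2FC -1.12, adjusted p = 6.49e-05). ATG4D was at 7.16, 7.14 and 6.84 FPKM and 1.95, 2.33 and 2.14 FPKM (log2FC -1.36, adjusted p = 7.36e-06), the largest fall of any tested member in this line. All 4 were SDE without overlap between the lines, and none was SDE after the correction, with log2FC of 0.37 for ATG4A, -0.48 for ATG4B, -0.06 for ATG4C and -0.34 for ATG4D. ATG4B, ATG4D and ATG4A still passed an adjusted p of 0.05 then (0.0053, 0.00197 and 0.00877), and ATG4C did not (0.554).

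In BxPC-3-GR the same 4 genes did not follow GC content. ATG4A fell from 7.18, 5.40 and 8.03 FPKM to 4.47, 4.32 and 4.55 FPKM (log2FC -0.52, adjusted p = 0.0138). ATG4D, the richest in GC, rose from 2.04, 2.29 and 2.0 FPKM to 3.61, 3.79 and 3.07 FPKM (log2FC 0.53, adjusted p = 0.00176). ATG4C was at 3.49, 2.87 and 3.63 FPKM in BxPC-3 and 3.98, 4.27 and 4.66 FPKM in BxPC-3-GR (log2FC 0.30, adjusted p = 0.0286). ATG4B was at 2.58, 2.80 and 2.71 FPKM and 2.43, 2.25 and 2.44 FPKM (log2FC -0.13, adjusted p = 0.0685). ATG4A and ATG4D thus moved opposite ways in both lines, and each moved opposite ways between the lines. KRI1, on the other strand, shares 15.0% of the exonic bases of ATG4D.

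Of the conjugation enzymes, ATG3, the E2-like enzyme that passes ATG8 proteins to their lipid, moved opposite ways in the 2 lines. It was at 10.2, 11.5 and 10.6 FPKM in BxPC-3 and 7.26, 7.50 and 7.21 FPKM in BxPC-3-GR (log2FC -0.50, adjusted p = 0.00063). CFPAC-1 libraries had 4.07, 4.40 and 3.7 FPKM and those of CFPAC-1-GR 8.86, 8.71 and 8.4 FPKM (log2FC 0.93, adjusted p = 2.99e-05). Its corrected log2FC in CFPAC-1-GR was -0.22 (adjusted p = 0.0327), so that with the correction ATG3 fell in both lines.

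ATG5 and ATG12 are joined to each other and act, with ATG16L1, as the ligase that directs ATG8 proteins to the membrane. ATG5 (chromosome 6, 106045423 to 106325791) rose in both lines, from 3.58, 3.49 and 3.15 FPKM to 4.16, 4.58 and 4.19 FPKM in BxPC-3-GR (log2FC 0.27, adjusted p = 0.0112). In the CFPAC-1 lines it went from 1.0, 1.07 and 1.14 FPKM to 3.37, 3.52 and 3.43 FPKM (log2FC 1.10, adjusted p = 8.79e-06, corrected -0.10 with adjusted p = 0.29). ATG12 fell in BxPC-3-GR, from 1.71, 1.69 and 1.99 FPKM to 1.44, 1.35 and 1.46 FPKM (log2FC -0.21, adjusted p = 0.0256). It was at 0.991, 0.898 and 1.06 FPKM in CFPAC-1 and 2.89, 2.65 and 2.47 FPKM in CFPAC-1-GR (log2FC 0.89, adjusted p = 3.51e-05, corrected -0.49 with adjusted p = 0.00185). Neither rise in CFPAC-1-GR kept its direction under the correction.

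ATG7, the E1-like enzyme that serves both conjugation systems, was among the steadiest members, at line means of 1.98 to 2.49 FPKM. Its log2FC was 0.06 in BxPC-3-GR (adjusted p = 0.47) and -0.06 in CFPAC-1-GR (adjusted p = 0.41, corrected -0.24 with adjusted p = 0.0192). VGLL4, on the other strand, shares 18.1% of the exonic bases of ATG7. ATG10, the E2-like enzyme for ATG12, did not pass in CFPAC-1-GR (log2FC 0.25, adjusted p = 0.063, corrected -0.59 with adjusted p = 0.00366). In BxPC-3 and BxPC-3-GR ATG10 was under the minimum, at line means of 0.369 and 0.930 FPKM. ATG16L1 was low in every line, with means of 0.131 to 0.477 FPKM, and its resistant libraries were all below its parental ones in both pairs.

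Of the 4 ATG8 genes, MAP1LC3B, GABARAP and GABARAPL1 varied widely between replicates. MAP1LC3B, which encodes LC3B, was at 9.74, 10.3 and 9.85 FPKM in BxPC-3 and at 6.51, 2.15 and 6.49 FPKM in BxPC-3-GR. All 3 resistant libraries were lower, with a log2FC of -0.97 (SE 0.34, adjusted p = 0.0494, corrected -0.96 with adjusted p = 0.0536), which is at the edge of the threshold and rests on widely spread values. In CFPAC-1 it was at 4.81, 5.48 and 2.30 FPKM and in CFPAC-1-GR at 7.18, 8.45 and 3.29 FPKM, which overlap (log2FC 0.47, adjusted p = 0.263, corrected 0.41 with adjusted p = 0.366). A near-identical copy, MAP1LC3B2, was listed at 1.97 to 3.96 FPKM over the 12 libraries, so reads may be divided between them. Without BxPC-3-GR replicate 1 the log2FC of MAP1LC3B in BxPC-3-GR was -1.18 (adjusted p = 0.0416), and without replicate 3 it was also -1.18 (adjusted p = 0.0461), both past the SDE threshold. Without replicate 2, the library at 2.15 FPKM, it was -0.55 (adjusted p = 0.00152), so the size of the fall rests on that library.

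GABARAP, the founding member of the other ATG8 branch, was not significantly different in either line. It was at 5.18, 4.25 and 12.4 FPKM in BxPC-3 and 11.2, 11.9 and 7.87 FPKM in BxPC-3-GR (log2FC 0.56, adjusted p = 0.233). In CFPAC-1 it was at 15.1, 38.1 and 10.5 FPKM and in CFPAC-1-GR at 5.54, 9.51 and 10.5 FPKM (log2FC -1.07, SE 0.455, adjusted p = 0.0654, corrected -0.98 with adjusted p = 0.112). Without CFPAC-1 replicate 2, the library at 38.1 FPKM, the log2FC was -0.56 (adjusted p = 0.112), and without CFPAC-1 replicate 3 it was -1.44 (adjusted p = 0.0207). Its values are uncertain, because a gene listed as AC120057.3 (ENSG00000262526) shares 691 of its 2266 exonic bases on the same strand. That gene was listed at 0 in 4 libraries and at 20.3 to 59.6 FPKM in the other 8. GABARAPL2 rose in CFPAC-1-GR (log2FC 0.28, adjusted p = 0.0295, corrected -0.51 with adjusted p = 0.00338) and did not pass in BxPC-3-GR (log2FC 0.08, adjusted p = 0.49). GABARAPL1 did not pass in BxPC-3-GR (log2FC 0.25, adjusted p = 0.566) and was under the minimum in the CFPAC-1 lines, at means of 0.795 and 1.07 FPKM.

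Among the cargo receptors, SQSTM1 (p62; chromosome 5, 179806398 to 179838078) fell in both lines while NBR1, OPTN and CALCOCO2 rose in both. SQSTM1, which binds ubiquitylated cargo, was at 23.6, 24.6 and 21.5 FPKM in BxPC-3 and at 12.1, 11.8 and 10.7 FPKM in BxPC-3-GR, 0.497 times the mean. The log2FC was -0.95 (SE 0.0729, adjusted p = 0.000124), just short of the SDE threshold, and without BxPC-3 replicate 3 it was -1.002 (adjusted p = 0.00046), just past it. In CFPAC-1 it was at 32.2, 28.7 and 28.6 FPKM and in CFPAC-1-GR at 16.5, 18.6 and 17 FPKM (log2FC -0.75, adjusted p = 0.000121, corrected -0.30 with adjusted p = 0.0166). The libraries of each resistant line were all below those of its parental line. MRNIP, on the other strand, shares 20.7% of the exonic bases of SQSTM1.

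NBR1, a receptor that works beside SQSTM1, was SDE in CFPAC-1-GR. It was at 10.6, 10.8 and 10.6 FPKM in CFPAC-1 and 24.8, 26.6 and 25.2 FPKM in CFPAC-1-GR (log2FC 1.19, SE 0.0623, adjusted p = 7.49e-06, corrected 0.43 with adjusted p = 0.00144). In BxPC-3 it was at 12.9, 12.1 and 12.6 FPKM and in BxPC-3-GR at 15.0, 14.9 and 16.8 FPKM (log2FC 0.29, adjusted p = 0.00936). OPTN, a receptor for bacteria and mitochondria, rose from 6.42, 5.96 and 6.57 FPKM to 9.70, 9.62 and 11.5 FPKM in BxPC-3-GR (log2FC 0.62, adjusted p = 0.00105). In the CFPAC-1 lines OPTN rose from 6.72, 7.14 and 7.77 FPKM to 18.4, 18.3 and 16.2 FPKM (log2FC 1.18, SE 0.0829, adjusted p = 1.73e-05, corrected 0.55 with adjusted p = 0.00113). Both receptors thus rose in both lines, also with the correction.

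TAX1BP1 (chromosome 7, 27739331 to 27844564), a receptor for protein aggregates and pathogens, was the member that stayed SDE in CFPAC-1-GR under the correction. It was at 1.81, 1.65 and 1.93 FPKM in CFPAC-1 and at 8.72, 8.15 and 8.70 FPKM in CFPAC-1-GR. The log2FC was 1.77 (SE 0.0699, adjusted p = 6.25e-06) and the corrected log2FC 1.33 (adjusted p = 5.01e-05). With a GC content of 48.0%, TAX1BP1 had the highest GC of the SDE members that rose in this line. In BxPC-3 it was at 15.6, 14.9 and 16.8 FPKM and in BxPC-3-GR at 15.9, 16.7 and 17.9 FPKM, which overlap (log2FC 0.09, adjusted p = 0.308). CALCOCO2 (NDP52), a close relative, had a log2FC of 0.38 in BxPC-3-GR (adjusted p = 0.0415, corrected 0.36 with adjusted p = 0.0521) and 0.80 in CFPAC-1-GR (adjusted p = 0.00219, corrected -0.04 with adjusted p = 0.826).

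**Figure D4:**
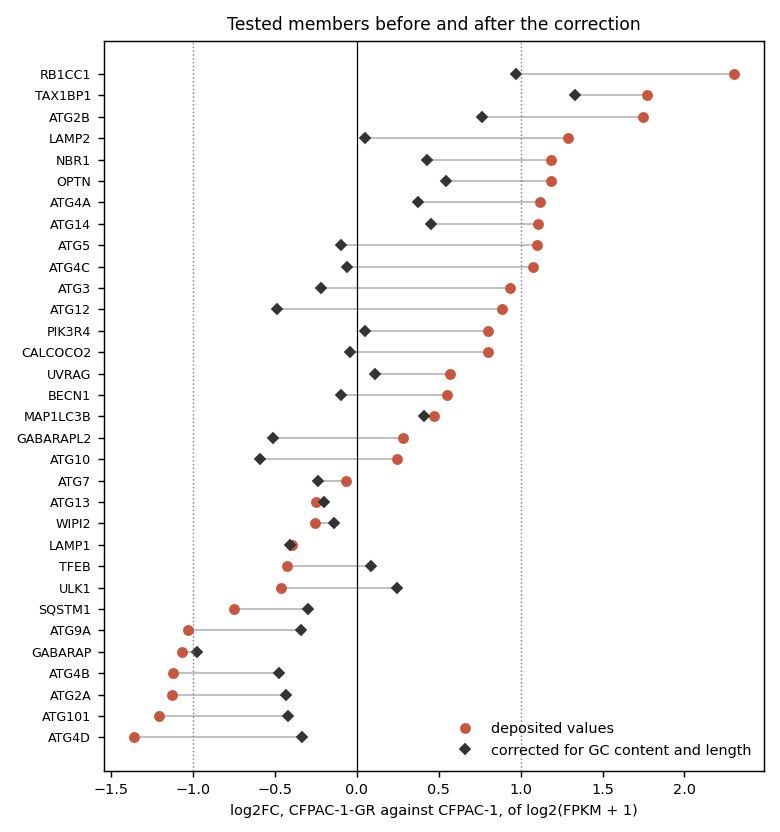
Each of the 32 tested members is a row, with its log2FC of CFPAC-1-GR against CFPAC-1 from the deposited values (circles) and after the correction for GC content and exonic length (diamonds); dotted lines mark a log2FC of -1 and 1. Of the 15 members outside the dotted lines with an adjusted p under 0.05, TAX1BP1 alone stays outside, at 1.33.

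Of the lysosomal genes, LAMP2 (chromosome X, 120427827 to 120469365), a lysosomal membrane glycoprotein needed for fusion and for chaperone-mediated autophagy, rose in CFPAC-1-GR. It was at 7.72, 7.65 and 7.30 FPKM in CFPAC-1 and 20.7, 19.2 and 19.8 FPKM in CFPAC-1-GR (log2FC 1.29, SE 0.0641, adjusted p = 6.79e-06). The corrected log2FC was 0.05 (adjusted p = 0.446), one of the largest moves under the correction. In BxPC-3 it was at 49.2, 52.0 and 49.5 FPKM and in BxPC-3-GR at 50.0, 49.0 and 53.1 FPKM (log2FC 0.01, adjusted p = 0.848), the highest level of any member in those lines.

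LAMP1, the companion glycoprotein, was at 31.7, 31.4 and 32.4 FPKM in BxPC-3 and 38.1, 38.7 and 28.1 FPKM in BxPC-3-GR, which overlap (log2FC 0.12, adjusted p = 0.462). In CFPAC-1 it was at 25.1, 27.6 and 20.2 FPKM and in CFPAC-1-GR at 17.8, 18.8 and 17.6 FPKM (log2FC -0.40, adjusted p = 0.016, corrected -0.41 with adjusted p = 0.02). This was a fall that the correction hardly moved. TFEB, the transcription factor that drives lysosomal and autophagy genes, was at means of 0.0862 and 0.166 FPKM in BxPC-3 and BxPC-3-GR, under the minimum. It fell in CFPAC-1-GR, from a mean of 1.42 to 0.798 FPKM (log2FC -0.43, adjusted p = 0.00126, corrected 0.09 with adjusted p = 0.271).

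TFEB and its relatives bind sites built on the palindrome CACGTG, so the promoters of the members were searched for these letters, which read alike on both strands. The windows came from RefSeq (GRCh38.p14), from 250 bases before to 50 after each start, and 33 of the 37 members had one. The letters were in the windows of 3 members, ATG3, ATG14 and LAMP1, which is 9.09% of members against 8.77% of all 27305 genes with a window. They are printed with 12 bases on each side, the shared letters in capitals, on the strand of the gene:
ATG3: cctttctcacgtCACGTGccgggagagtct
ATG14: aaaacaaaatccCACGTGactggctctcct
LAMP1: gacccgcgggatCACGTGacgcccgggcgc
These lie at chr3:112561963-112561992 (minus strand), chr14:55411834-55411863 (minus strand) and chr13:113297199-113297228 (plus strand). ATG3 held the letters 2 times and LAMP1 6 times in its window. In BxPC-3-GR only ATG3 passed in limma (log2FC -0.50), with ATG14 at 0.83 (adjusted p = 0.105) and LAMP1 at 0.12 (adjusted p = 0.462). In CFPAC-1-GR the log2FC was 0.93 for ATG3, 1.11 for ATG14 and -0.40 for LAMP1. The corrected log2FC there was -0.22, 0.45 and -0.41 in the same order. A match is a description of the letters and not a bound site.

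Set side by side, 9 of the 30 members tested in both lines changed in the same direction at an adjusted p under 0.05 in each. ATG4C, ATG5, CALCOCO2, NBR1, OPTN and RB1CC1 rose in both lines, and ATG101, ATG2A and SQSTM1 fell in both. Another 8 moved opposite ways: ULK1, ATG9A, ATG4D and WIPI2 rose in the BxPC-3 pair but fell in the CFPAC-1 pair, and ATG12, ATG3, ATG4A and PIK3R4 did the reverse. Over the 10393 genes tested in both lines, 11.9% rose in both, 11.3% fell in both, 9.92% rose in the former but fell in the latter, and 15.5% did the reverse. For the members these shares were 20.0%, 10.0%, 13.3% and 13.3%. With the correction in both lines, RB1CC1, OPTN, NBR1 and ULK1 were higher in both, and ATG101, SQSTM1, ATG2A, ATG3, ATG4B and ATG12 were lower in both. ATG4D and ATG9A then rose in the BxPC-3 pair but fell in the CFPAC-1 pair, and ATG2B and ATG4A did the reverse, so 4 moved opposite ways in place of 8. In the order above, the corrected shares of the members were 13.3%, 20.0%, 6.67% and 6.67%. Shares over all genes were not computed with the correction, so these have no background beside them. RB1CC1, NBR1, OPTN, ATG101, ATG2A and SQSTM1 kept the shared direction with and without it.

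The difference between the lines in their response was tested as an interaction over all 12 libraries, as the change in the CFPAC-1 lines minus that in the BxPC-3 lines. Of 31 members tested, 9 had a difference above 1 and 4 below -1 at an adjusted p under 0.05, where 23.6% and 14.4% of all 12210 genes did. Above 1 were ATG2B (1.94, adjusted p = 2.14e-07), TAX1BP1 (1.68, adjusted p = 5.09e-08), ATG4A (1.64, adjusted p = 3.52e-06), ATG3 (1.43, adjusted p = 1.1e-07) and LAMP2 (1.27, adjusted p = 7.62e-08). RB1CC1 (1.21), PIK3R4 (1.14), ATG12 (1.10) and MAP1LC3B (1.44, adjusted p = 0.0325) were the other 4. Below -1 were ULK1 (-1.94, adjusted p = 5.65e-08), ATG4D (-1.89, adjusted p = 4.38e-08), ATG9A (-1.35, adjusted p = 8.09e-08) and GABARAP (-1.63, adjusted p = 0.0388). The call of MAP1LC3B was lost without any one of the BxPC-3 libraries, BxPC-3-GR replicate 2, CFPAC-1 replicate 3 or CFPAC-1-GR replicate 1 or 2 (adjusted p of 0.0513 to 0.0777). That of GABARAP was lost without replicate 1 or 2 of BxPC-3, BxPC-3-GR or CFPAC-1-GR or without CFPAC-1 replicate 2 (adjusted p of 0.051 to 0.0924).

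With the correction, 3 of 31 members had a difference above 1 and 1 below -1, where 9.31% and 9.10% of 12184 genes did. Thus 4 of the 13 differences stayed past the thresholds. These were ATG2B (1.10, adjusted p = 5.99e-06), TAX1BP1 (1.27, adjusted p = 7.53e-07), ULK1 (-1.09, adjusted p = 8.4e-06) and MAP1LC3B (1.37, adjusted p = 0.0498). GABARAP lost its call on the p-value alone, with a corrected difference of -1.60 (adjusted p = 0.053). Another 5 fell under the size threshold at an adjusted p under 0.05: ATG4A (0.85), ATG4D (-0.80), ATG9A (-0.61), PIK3R4 (0.41) and ATG3 (0.29). ATG12 turned to -0.25 (adjusted p = 0.0255), and LAMP2 and RB1CC1 came to 0.04 (adjusted p = 0.622) and -0.11 (adjusted p = 0.403). SQSTM1 did not differ in response beyond its error with the deposited values (0.20, adjusted p = 0.111) and did after the correction (0.71, adjusted p = 0.000124). ULK1, ATG2B and TAX1BP1 thus differed by more than 1 with and without the correction, and no single library left out of the deposited values ended these 3 calls. Libraries were not left out of the corrected fit, where ULK1 and ATG2B were just past the size threshold.

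Other genes of the pathway that are not among the 37 were read from lists of fixed membership, of which the counts are given. The share of all tested genes that were SDE, beside which each count of these lists stands, was 4.14% higher and 3.62% lower in BxPC-3-GR and 20.5% higher and 11.7% lower in CFPAC-1-GR. Of other autophagy genes, 0 of 16 tested were SDE in BxPC-3-GR and 6 of 18 were SDE and higher, 1 lower, in CFPAC-1-GR. Those that rose most in CFPAC-1-GR were VMP1 (log2FC 1.56, corrected 0.30), an endoplasmic reticulum protein needed to form autophagosomes, NCOA4 (1.56, corrected 0.80), the receptor for ferritin, and WDFY3 (1.48, corrected 0.43), an adaptor for aggregates. WDFY3, at a mean of 0.747 FPKM in CFPAC-1 and 3.90 FPKM in CFPAC-1-GR, reached the minimum for the test through the resistant line alone. TECPR1, which tethers autophagosomes to lysosomes, was lower (-1.06, corrected -0.46). Of receptors for mitochondria and endoplasmic reticulum, 0 of 12 were SDE in BxPC-3-GR and 3 of 13 were higher and 1 lower in CFPAC-1-GR: BNIP3L (1.88, corrected 0.77), SEC62 (1.86, corrected 0.50), ATL3 (1.16, corrected -0.05) and FKBP8 (-1.84, corrected -0.85). In BxPC-3-GR limma had 6 of the 16 rise and 4 fall, and 3 of the 12 rise and 3 fall, with the same counts at an unadjusted p under 0.05.

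Among lysosomal enzymes, 3 rose past the SDE threshold in BxPC-3-GR. Of 19 tested, 3 were SDE and higher (4.14% of all genes were) and none lower (3.62%). TPP1, a lysosomal peptidase, went from a mean of 6.43 to 49.6 FPKM (log2FC 2.77, adjusted p = 1.3e-06). SMPD1, the acid sphingomyelinase, went from 1.18 to 9.17 FPKM (2.21, adjusted p = 0.000137). GAA, the acid glucosidase, went from 0.350 to 2.24 FPKM (1.27, adjusted p = 1.3e-05), and it reached the minimum for the test through its resistant libraries alone. Where these genes lie in the genome, and whether genes beside them changed too, was not examined. In CFPAC-1-GR 0 of 22 were SDE and higher and 2 were SDE and lower, GAA (-1.29, corrected -0.48) and NAGLU (-1.25, corrected -0.29), against 20.5% and 11.7% of all genes. At an adjusted p under 0.05 alone 6 rose and 13 fell, against 44.6% and 34.9% of all genes, with the same counts at an unadjusted p under 0.05. With the correction 5 were higher and 9 lower, against 29.6% and 30.6% of all genes. Of 15 genes of the proton pump that acidifies the lysosome, 1 was SDE in BxPC-3-GR, ATP6V0D1 (-1.03, adjusted p = 9.5e-05, against 3.62% of all genes). In CFPAC-1-GR 3 of 15 were higher, led by ATP6V1C1 (1.94, corrected 0.79), and 4 were lower, led by ATP6V0B (-1.81, corrected -1.26), against the same 20.5% and 11.7%.

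The kinases that govern ULK1 were read from a list of mTORC1 and AMPK genes, mTORC1 being known to restrain ULK1 and AMPK to activate it. In BxPC-3-GR 2 of 24 were SDE and higher, against 4.14% of all genes. They were DEPTOR, an inhibitor of mTOR (from 0.0473 to 4.21 FPKM, log2FC 2.32, adjusted p = 2.52e-06), and PRKAA2, a catalytic subunit of AMPK (from 0.0909 to 2.17 FPKM, 1.54, adjusted p = 4.94e-06). Both reached the minimum for the test through the resistant libraries alone. Another 2 were lower, against 3.62% of all genes: RPTOR, the substrate-binding subunit of mTORC1 (from 5.95 to 1.60 FPKM, -1.42, adjusted p = 2.87e-05), and AKT1S1, an inhibitor of mTORC1 (from 13 to 5.44 FPKM, -1.12, adjusted p = 9.94e-05). At an adjusted p under 0.05 alone 5 of the 24 rose and 12 fell, against 26.2% and 31.5% of all genes. In CFPAC-1-GR 5 of 20 were higher, led by PRKAB2 (2.0, corrected 0.98), PRKAA1 (1.87, corrected 0.54) and FNIP1 (1.62, corrected 0.33), and 5 were lower, led by AKT1S1 (-1.45, corrected -0.79), MLST8 (-1.31, corrected -0.44) and LAMTOR1 (-1.28, corrected -0.73). Of all genes 20.5% were higher and 11.7% lower, so the share that was higher was near the background. FNIP1, at a mean of 0.412 FPKM in CFPAC-1 and 3.355 FPKM in CFPAC-1-GR, reached the minimum for the test through the resistant line alone. AKT1S1 was lower in both lines. With the correction no gene of the 5 lists of other genes was SDE and higher in CFPAC-1-GR, and ATP6V0B and HEXA (corrected log2FC -1.21, named after its value was seen) were SDE and lower.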

How the data were processed

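RNA of 4 lines was sequenced in 3 libraries each (12 in all). The authors deposited 1 table of FPKM values (fragment counts scaled to gene length and library depth) for 58302 genes. The methods give GRCh38 with Ensembl release 91, and the submitters' processing notes name hg19 and GRCh38 as builds and Trimmomatic 0.27, FastQC 0.10.1 and TopHat2 2.0.8 as tools. The program that made the FPKM values is not given in the sources used here. GENCODE release 29 held 58039 of the genes, 56610 at the same start and end, and all 37 members. It gave the GC content, from the longest transcript of a gene, and the exonic length, from all its exons.

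Where its mean over the libraries of a fit reached 1 FPKM, a gene was tested on log2(FPKM + 1) with limma 3.58.1 in R 4.3.3 (lmFit, eBayes, no block) and Benjamini-Hochberg adjustment over all genes tested, and was SDE with an adjusted p under 0.05 beside an absolute log2FC over 1. This scale understates changes of low genes. A gene low in 1 line of a pair can reach the minimum through the other line alone. In the CFPAC-1 pair RB1CC1, ATG2B, ATG12 and ATG10 did so through the resistant line and TFEB through the parental line. The corrected fit took natural splines of GC content and log2 length (5 degrees of freedom each) out of each library. The code was tested on simulated data. Per-library values are given for each member called in a line or in the difference, and for the member of largest log2FC of each role group in each line; of other lists, at most 3 called genes per direction and line are named. The members and lists were chosen with earlier results of these data known. Alternatives were another pseudocount, no filter, 1 fit of all libraries, a replicate block, the correction, 2 scalings and each library left out. Replicate numbers were checked and do not pair the samples.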

Additional observations from a re-analysis of the deposited data

Results flagged for a closer look

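Each of the 13 results here is a member whose change in the CFPAC-1 lines differed from its change in the BxPC-3 lines, by the interaction term of limma over all 12 libraries. The differences, CFPAC-1 lines minus BxPC-3 lines, were 1.94 for ATG2B, 1.68 for TAX1BP1, 1.64 for ATG4A, 1.44 for MAP1LC3B, 1.43 for ATG3, 1.27 for LAMP2, 1.21 for RB1CC1, 1.14 for PIK3R4 and 1.10 for ATG12. They were -1.94 for ULK1, -1.89 for ATG4D, -1.63 for GABARAP and -1.35 for ATG9A. ULK1, ATG9A, ATG4D, ATG3, ATG4A, ATG12 and PIK3R4 changed in opposite directions in the 2 lines, each at an adjusted p under 0.05. With the GC content and length correction this held for ATG9A, ATG4D and ATG4A, while ULK1 was higher in both, ATG3 and ATG12 were lower in both, and PIK3R4 was at 0.05 (adjusted p = 0.546) in CFPAC-1-GR. ATG2B was then lower in BxPC-3-GR and higher in CFPAC-1-GR.

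The 9 above 1 include genes of low GC content and the 4 below -1 include ULK1 and ATG4D, the 2 richest in GC of all members (64.2% and 64.8%). Across the 31 members tested, the difference had a Spearman's rho of -0.748 with GC content, and -0.696 across 12184 genes.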

How the results depend on the processing

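Values of single members under the alternatives were counted for the members tested in each line and for the 13 called differences. Differences that were not called are outside this count. Of these 1220 values, 1110 kept their direction and side of the threshold, 65 lost a call, 14 gained one and 31 reversed. With the GC content and length correction, with or without the replicate block, members called up in CFPAC-1-GR went from 10 to 1 and called down from 5 to 0, and those higher at an adjusted p under 0.05 from 17 to 8 (9 with the block). The called differences went from 9 to 3 up and from 4 to 1 down. Reversed by the correction, with and without the block, were in CFPAC-1-GR ULK1 (0.24), BECN1 (-0.10), ATG3 (-0.22), ATG4C (-0.059), ATG5 (-0.10), ATG10 (-0.59), ATG12 (-0.49), GABARAPL2 (-0.51), CALCOCO2 (-0.043) and TFEB (0.087). PIK3C3 in BxPC-3-GR turned to -0.053, and of the 13 called differences those of RB1CC1 and ATG12 to -0.11 and -0.25. Differences that were not called also turned with the correction: ATG101 (0.21), BECN1 (-0.023), ATG14 (-0.36), ATG4C (-0.40), ATG5 (-0.36), GABARAPL2 (-0.63), OPTN (-0.050) and CALCOCO2 (-0.38). With libraries left out, reversals were of values near 0 in BxPC-3-GR: PIK3C3 ranged from -0.017 (without BxPC-3-GR replicate 3) to 0.038, LAMP2 from -0.019 (the same) to 0.038 and GABARAPL1 from -0.065 (without BxPC-3 replicate 2) to 0.55.

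In BxPC-3-GR, members called down were 1 in place of 0 with a pseudocount of 0.1 (SQSTM1), and 0 to 1 with a library left out (SQSTM1 without BxPC-3 replicate 3, MAP1LC3B without BxPC-3-GR replicate 1 or 3), called up were 2 to 3 (3 without BxPC-3 replicate 2), and members lower at an adjusted p under 0.05 were 5 in place of 8 with upper-quartile scaling over the tested genes. With a pseudocount of 0.1 and no filter, 4 were called up and 1 down in BxPC-3-GR, while 7 differences were called down. Median-of-ratios scaling moved the median of all genes by -0.126 in CFPAC-1-GR and by -0.233 in the difference; of all SDE genes the higher share went from 63.7% to 52.7% and from 62.1% to 46.9%, and members called up were 6 in CFPAC-1-GR and 5 in the difference. With libraries left out, called members in CFPAC-1-GR were 10 up and 5 to 6 down, and called differences 8 to 9 up and 3 to 5 down. The calls of MAP1LC3B and GABARAP in the difference were lost without most single libraries, at adjusted p up to 0.0777 and 0.0924. GABARAP in CFPAC-1-GR ranged from -1.44 (SDE, without CFPAC-1 replicate 3, adjusted p = 0.0207) to -0.56 (without CFPAC-1 replicate 2), and MAP1LC3B in BxPC-3-GR from -1.18 to -0.55 (without BxPC-3-GR replicate 2).

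Replicates with the same number correlated at 0.0959, -0.0521 and 0.0584 in the BxPC-3 lines and at 0.000145, -0.143 and -0.0671 in the CFPAC-1 lines, so the numbers pair no samples. With the replicate block alone, 2 members were called up and 0 down in the BxPC-3 pair, 10 and 6 in the CFPAC-1 pair, and 9 and 3 in the difference. The cause of these changes was not tested. The minimum left ULK2, WIPI1 and ATG16L1 with no test in either pair, ATG10 and TFEB with none in the BxPC-3 pair, and PIK3C3 and GABARAPL1 with none in the CFPAC-1 pair.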

Other observations

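Members below the minimum mean were given a value in a fit with a pseudocount of 0.1 and no filter, chosen after seeing the data. In BxPC-3-GR, WIPI1, which binds the PI3K mark, had a log2FC of 1.79 (adjusted p = 0.00097, higher in 3 of 3 libraries), ATG10 1.15 (adjusted p = 0.00602), ULK2 0.96 (adjusted p = 0.00238), TFEB 0.51 (adjusted p = 0.0123) and ATG16L1 -0.52 (adjusted p = 0.0256). In CFPAC-1-GR, PIK3C3 had 1.77 (adjusted p = 0.00113), ULK2 0.92 (adjusted p = 0.00474), ATG16L1 -0.54 (adjusted p = 0.00871), WIPI1 0.37 (adjusted p = 0.238) and GABARAPL1 0.36 (adjusted p = 0.269), without the GC correction. In that fit 5.39% of 28777 genes were SDE and higher in BxPC-3-GR and 20.5% of 29966 in CFPAC-1-GR.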
